A study of Mus musculus with 13 samples.

Results

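Z-RNA was precipitated with the antibody Z22 from Yumm1.7 cells, a mouse cutaneous melanoma line of the labelled genotype WT, and the library from cells given 1 μM 5-Aza-CdR for 72 h was compared with the library from cells given the solvent DMSO. These are 2 of the 13 libraries of the series, chosen by their labels alone. The other libraries hold total RNA, RNA precipitated with the double-stranded RNA antibody J2, the Z22 libraries of cells given the ADAR1 inhibitor ADAR1i-124 or both agents (the combination), and an IgG control precipitate whose cell treatment is not stated. The RNA had been cut with RNase I, which removes single strands, and freed of DNA before precipitation. Every condition has 1 library, so no difference below has a replicate check, and intervals on single genes cover counting error only.

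5-Aza-CdR (decitabine) is a cytidine analogue that traps DNA methyltransferases, so that dividing cells lose CpG methylation. Genes and repeats held silent by methylation can then be transcribed, and RNA copied from both strands of repeats can pair. Z-RNA is the left-handed form of the RNA double helix. It is bound by the Zα domains of ZBP1 and of the long form of ADAR1, and alternating purine-pyrimidine sequence takes it most readily. The comparison addresses which transcripts were recovered by Z22 after treatment with a demethylating agent.

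The Z22 DMSO library held 8727552 counts and the Z22 5-Aza-CdR library 8167960, against 15324595 for IgG. Levels are given as counts per 1000000 counts of a library (CPM), and changes as the difference of log2(CPM + 0.5), 5-Aza-CdR minus DMSO. Of 54532 genes, 13716 averaged 1 CPM or more in the pair and are called measured genes. Their median change was 1.06, or 2.09-fold, and 11250 of them had the higher CPM with 5-Aza-CdR. In the J2 pair the median over the same genes was 0.05 and in the total RNA pair 0.04. All changes below are therefore given relative to this all-gene shift of their own pair, on the log2 scale, unless a raw CPM is named. In bulk RNA, fewer cells of a type and less RNA per cell cannot be told apart.

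The shift went with a small set of abundant loci. Gm42418, a locus known to collect reads from ribosomal RNA, stood at 348678 CPM in the Z22 DMSO library and at 105736 CPM in the Z22 5-Aza-CdR library. It lay at 146013 CPM with ADAR1i-124, 157975 CPM in the combination and 142448 CPM in IgG, so for this locus the DMSO library was the one that stood apart. Lars2, which also collects such reads, went from 25353 to 4649 CPM, and Gm26917 from 16782 to 2554 CPM. For Gm26917, at 12676 CPM in the combination and 7554 CPM with ADAR1i-124, it was not the DMSO library alone that stood apart. All 4 measured rRNA-like loci, of 7 listed, were at least 2-fold below the shift, with a median of −3.57, or −2.78 against genes of similar GC content. Of all measured genes 19.3% were at least 2-fold below it. The 7 together held 39.7% of the counts with DMSO and 11.4% with 5-Aza-CdR. They are part of the library sizes, so their fall and the shift are not independent. Without the 20 genes of highest mean share in the library size the shift was 0.56. The Z22 DMSO library had the lowest CPM of the 4 Z22 libraries in 9211 measured genes (67.2%) and the highest in 1663 (12.1%). How much of the shift belongs to this library was not tested.

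Relative to the shift, 2517 genes were at least 2-fold higher with 5-Aza-CdR (18.4% of measured genes) and 2650 were at least 2-fold lower (19.3%). The middle 50% of genes spanned −0.79 to 0.76. At a 4-fold line 423 genes were higher and 626 lower. In the J2 pair 7.25% of the same genes were at least 2-fold higher and 6.13% lower, and in the total RNA pair 14.5% and 9.67%. At the 4-fold line J2 had 328 higher and 125 lower, and total RNA 630 and 264. The Z22 pair thus had the most genes past 2-fold each way, while more genes were 4-fold higher in total RNA than in Z22.

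Sequence composition moved with the change. In 5 equal groups of genes from the lowest to the highest exon GC content, the median relative change in Z22 was 0.76, 0.34, 0.01, −0.26 and −0.72. The same groups lay between −0.03 and 0.03 in J2, and ran from −0.18 to 0.49 in total RNA. Set against IgG, the log2 ratio in the Z22 DMSO library climbed from −1.53 in the lowest group to 0.21 in the highest, whereas in the Z22 5-Aza-CdR library it went from 0.06 to 0.52. The gradient therefore lay mainly in the DMSO library.

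**Figure D1:**
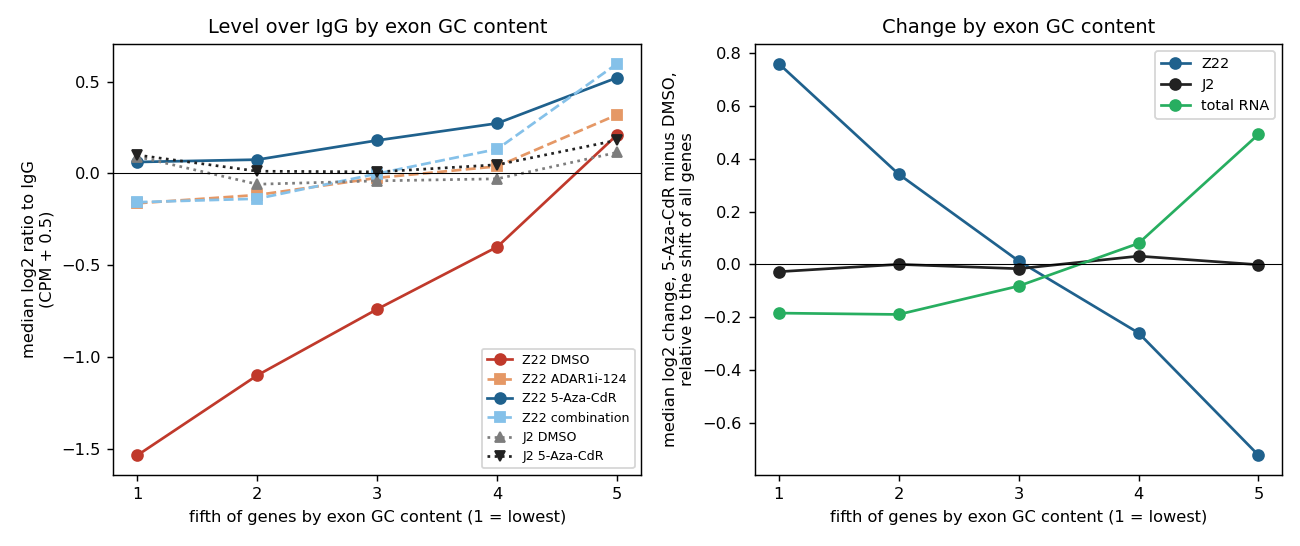
Left, median log2 ratio of CPM + 0.5 to IgG (vertical axis) in 5 equal groups of measured genes by exon GC content (horizontal axis, 1 is lowest), 1 line for each Z22 library and 2 J2 libraries. Right, median log2 change, 5-Aza-CdR minus DMSO relative to the all-gene shift, in the same groups. Only the Z22 DMSO line on the left starts near −1.53, and the Z22 line on the right falls from 0.76 to −0.72.

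Alternating purine-pyrimidine stretches, the sequence prone to the Z-form, went with a much smaller difference. Of 5 groups by a gene's longest such run, the group with the shortest (4 to 10 bases) had a median of −0.19, and the group with the longest (24 to 423 bases) had 0.10. Exon length gave medians between −0.06 and 0.06. From the least to the most repeat-rich of 5 groups, by soft-masked exon bases, the median went from −0.34 to 0.33. Processed pseudogenes, intronless copies of messenger RNAs, had a median of −0.68 over 684 genes, against 0.69 over 704 unconfirmed transcripts (TEC) and 0.76 over 38 small nucleolar RNAs, the guides of RNA modification.

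The 12 genes with the largest relative rise were led by transcripts absent from the DMSO precipitate. Xist, the long noncoding RNA that silences an X chromosome in female cells (chromosome X, 103460366 to 103483254, minus strand, GRCm38), had 0 counts with DMSO and 264 CPM with 5-Aza-CdR, at least 769-fold higher against a floor of 3 counts. It was at 0.955 CPM with ADAR1i-124, 1.04 CPM in IgG and 189 CPM in the combination. In J2 it went from 0.492 to 259 CPM and in total RNA from 0.294 to 123 CPM. Both 5-Aza-CdR precipitates of Z22 thus lay far above the other Z22 libraries and IgG.

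The pseudogene Gm15930 went from 0 counts to 120 CPM in Z22, at least 348-fold. The noncoding Gm14149 went from 0 to 37.5 CPM, at least 109-fold. Selp, the adhesion receptor P-selectin, reached 41.5 CPM from 0, at least 121-fold. Serpinb1c, Adgrg3, Cyp2c55 and Gm45861 were also at 0 with DMSO, which makes 8 of the 12. These 8 bounds are on raw CPM, of which the all-gene shift is 2.09-fold.

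Mmp10, Prl2c3 and Rnu1b2 had over 5 CPM in IgG. Mmp10, a matrix metalloproteinase, had 0.802 CPM with DMSO and 87.3 CPM with 5-Aza-CdR (5.01, counting interval 4.66 to 7.03). It stood at 42.8 CPM with ADAR1i-124 and 49.3 CPM in IgG, so the DMSO value was the one that stood apart. Prl2c3, a prolactin-family hormone, had 1.15 CPM with DMSO and 108 CPM with 5-Aza-CdR, beside 80.6 CPM in IgG. Rnu1b2, a copy of the spliceosomal U1 RNA, had 1 count with DMSO and 29.6 CPM with 5-Aza-CdR, beside 30.1 CPM in IgG (4.55, counting interval 4.46 to 12.26). All 12 leaders had their lowest Z22 value in the DMSO library, which their choice as the largest rises from that library nearly fixes. All 12 were also at least 2-fold higher in J2, and 11 in total RNA, beside 7.25% and 14.5% of all measured genes.

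**Figure D2:**
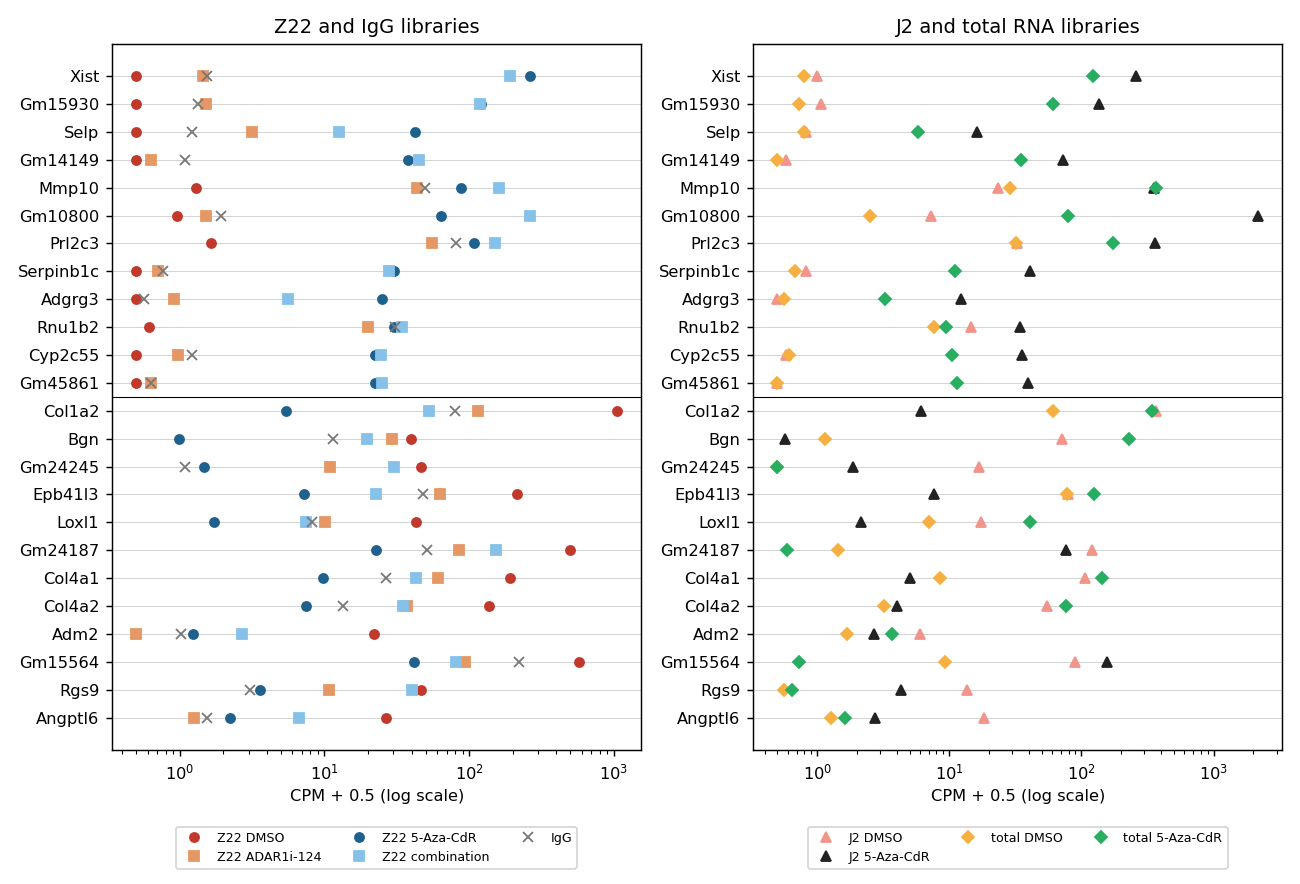
CPM + 0.5 on a log axis for the 12 genes with the largest relative rise (above the line) and the 12 with the largest fall (below it), 1 point a library, Z22 and IgG on the left and J2 and total RNA on the right. Xist sits at 0 counts in Z22 DMSO and at 264 CPM in Z22 5-Aza-CdR, while Col1a2 goes from 1053 to 4.90 CPM in Z22 and from 60.2 to 344 CPM in total RNA.

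Gm10800 brought in a repeat. Of its exon bases on chromosome 2, 99.1% are masked as repeat, and it is shown because 10 other genes share at least 10% of their 20-base words with it, so that reads among the 11 cannot be assigned to 1 locus with certainty. One exon block, chr2:98667079-98667228 on the minus strand of GRCm38, reads 5′ to 3′ as follows, with the 2 copies of the word TTTTCAGTTTTC in capitals.
Gm10800: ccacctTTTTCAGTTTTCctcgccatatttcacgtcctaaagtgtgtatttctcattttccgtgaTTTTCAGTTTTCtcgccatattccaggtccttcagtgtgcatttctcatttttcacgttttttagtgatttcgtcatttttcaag
The word TTTTCAGTTTTC, searched on both strands, is in the exons of all 11 genes and in 0.482% of measured genes. It is among the most frequent words of its length in Gm10800 exons, and both the word and the family were chosen after the values had been seen. The search for the family took only genes above a minimum count summed over the libraries, those with 5-Aza-CdR included. Some members thus entered through the libraries where they were high, so the family sums are a description only.

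Summed over the 11 genes, Z22 held 15.1 CPM (132 counts) with DMSO and 316 CPM (2578 counts) with 5-Aza-CdR, or 20.9-fold. The sum was 14.1 CPM with ADAR1i-124, 7.24 CPM in IgG and 1101 CPM in the combination. The Z22 libraries with 5-Aza-CdR were therefore the high ones, and the combination was the highest of them. In J2 the sum went from 500 to 66022 counts, 121-fold in CPM, and in total RNA from 7.23 to 138 CPM. Relative to the shift of each pair the sum was 3.32 higher in Z22, 6.87 in J2 and 4.22 in total RNA. Gm10800 itself had 4 counts in Z22 with DMSO and 515 with 5-Aza-CdR (4.99, counting interval 4.68 to 7.92), and Gm26870 had 103 and 1868 counts. Of the 6 family members measured, 4 were at least 2-fold above the Z22 shift, all 6 in J2 and 5 in total RNA. Of all measured genes 18.4%, 7.25% and 14.5% were so. With DMSO Gm10800 had 4 counts in Z22, Gm10801 0 and Gm11168 1, so these passed the filter through the 5-Aza-CdR library. The number above the shift is thus a description only.

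Germline genes silenced by promoter methylation, which guard or carry out meiosis and piRNA silencing, were low in the Z22 DMSO library. Of 56 genes, 12 had no count in either library, 18 had some counts but fell under the filter, and 26 were measured. Of those 26, 16 had 0 counts with DMSO and so passed through the 5-Aza-CdR library alone, hence the number above the shift is a description only. That number was 23 at least 2-fold higher and 1 lower (88.5% and 3.85%, beside 18.4% and 19.3% of all measured genes), with a median of 2.14, or 2.37 with the genes at 0 set to their bound. In the 5 genes with at least 1 CPM in IgG, a filter that does not use the pair, the median was 0.97, and with a pseudocount of 2 CPM that of all measured members was 0.87. Over all 44 with any count, 42 had the higher CPM with 5-Aza-CdR, as did 11250 of the 13716 measured genes. The summed level of the 56 was 26.7 CPM with DMSO, 35.3 CPM with ADAR1i-124, 317 CPM with 5-Aza-CdR, 201 CPM in the combination and 42.4 CPM in IgG. In total RNA their sum was 56.2 CPM with DMSO, 12.7 CPM with ADAR1i-124 and 96.7 CPM with 5-Aza-CdR. In 24 of the 26 both Z22 libraries with 5-Aza-CdR lay above DMSO, ADAR1i-124 and IgG, a count that the filter largely fixes as well.

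Tex19.1, which restrains retrotransposons in germ cells, had 0 counts with DMSO and 18.9 CPM with 5-Aza-CdR, at least 54.9-fold. Mov10l1, a helicase needed to make piRNAs, had 0 counts and 16.2 CPM, at least 47.0-fold. In IgG they were at 0.196 and 0.0653 CPM. In total RNA they were at 0 with DMSO and at 5.00 and 1.79 CPM with 5-Aza-CdR. Tdrd9, another piRNA helicase, went from 3 to 157 counts (3.49, counting interval 3.17 to 7.04). Piwil2, a piRNA-binding Argonaute protein, went from 1 to 112 counts (3.47, counting interval 3.33 to 11.16). Tdrkh went the other way, from 9.97 to 3.80 CPM (−2.35), and was named after its value was seen.

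The start regions of the leading germline genes are shown because 5-Aza-CdR acts through CpG methylation, which was itself not measured. Each window runs from 250 bases before to 50 bases after the start in RefSeq (GRCm38.p6), 5′ to 3′ on the gene's strand, with CG in capitals. Tex19.1 lies at chr11:121145893-121146192 on the plus strand and Mov10l1 at chr15:88982744-88983043 on the plus strand.
Tex19.1: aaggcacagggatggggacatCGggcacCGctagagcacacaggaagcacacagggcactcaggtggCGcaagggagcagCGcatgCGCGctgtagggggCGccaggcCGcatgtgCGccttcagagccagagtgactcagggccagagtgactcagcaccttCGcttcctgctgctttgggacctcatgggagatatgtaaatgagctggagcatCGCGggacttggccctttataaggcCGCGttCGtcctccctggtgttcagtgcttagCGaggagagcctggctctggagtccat
Mov10l1: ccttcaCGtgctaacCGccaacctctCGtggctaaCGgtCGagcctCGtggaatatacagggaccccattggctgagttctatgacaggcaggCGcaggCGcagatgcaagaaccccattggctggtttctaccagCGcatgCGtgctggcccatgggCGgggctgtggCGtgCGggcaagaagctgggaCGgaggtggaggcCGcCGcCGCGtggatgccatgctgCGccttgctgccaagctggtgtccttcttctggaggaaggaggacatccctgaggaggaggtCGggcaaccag
Tex19.1 holds 16 CG in this window and Mov10l1 20. Tdrkh, which was lower, holds 25, and Tdrd9, which was higher, holds 10. Whether the number of CG goes with the change was not tested. Over the 48 germline genes with a window the median was 17, against 7 over all 32851 windows. As many CG as in Tex19.1 were found in 33.0% of all windows.

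Epithelial keratins behaved alike. Krt18 had 0 counts in Z22 with DMSO and 12.5 CPM with 5-Aza-CdR, at least 36.3-fold, and its partner Krt8 had 0 counts and 9.30 CPM, at least 27.1-fold. Both were at 0 in total RNA with DMSO and at 1.85 and 2.08 CPM with 5-Aza-CdR. Snhg14, the noncoding host of imprinted small nucleolar RNAs, went from 1 to 105 counts in Z22 (3.38, counting interval 3.24 to 11.07). Across all measured genes, 370 (2.70%) were at least 2-fold above the shift in Z22, J2 and total RNA alike. Of these, 15 were germline genes and 128 had 0 counts in the Z22 DMSO library.

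Collagen chains had the lowest median of the lists with at least 8 measured genes. Of 44 chains, 5 had no count in either library, 16 were under the filter and 23 were measured. None of the 23 was at least 2-fold above the shift and 17 were at least 2-fold below it, with a median of −2.42, beside 18.4% and 19.3% of all measured genes. In raw CPM 17 of the 23 were lower, but over all 39 chains with any count 20 were higher and 19 lower, and with no filter beyond 1 count, where the all-gene shift was 0.58, the median was −0.56. Col1a2, a chain of fibrillar collagen I, stood at 1053 CPM with DMSO, 114 CPM with ADAR1i-124, 52.7 CPM in the combination, 79.4 CPM in IgG and 4.90 CPM with 5-Aza-CdR (−8.67, counting interval −9.29 to −8.36). The DMSO library was thus the highest and the 5-Aza-CdR library the lowest, with the others between.

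Total RNA ran opposite for these chains. Col1a2 had 60.2 CPM in total RNA with DMSO, 329 CPM with ADAR1i-124 and 344 CPM with 5-Aza-CdR, while in J2 it had 363, 22.8 and 5.56 CPM. Col4a1, a basement membrane chain, went from 192 to 9.30 CPM in Z22, from 106 to 4.51 CPM in J2 and from 8.05 to 142 CPM in total RNA, where ADAR1i-124 gave 10.5 CPM in J2 and 186 CPM in total RNA. For both genes the DMSO libraries were thus the ones apart in J2 and in total RNA. Summed over the 44 chains, total RNA held 3085 CPM with DMSO, 2514 CPM with ADAR1i-124 and 5057 CPM with 5-Aza-CdR, so the sum with ADAR1i-124 was not on that side in total RNA. Its neighbour and partner Col4a2 went from 137 to 6.98 CPM in Z22 and from 2.70 to 75.9 CPM in total RNA. Col6a3, of the microfibrillar collagen VI, went from 400 to 41.5 CPM in Z22 and from 89.8 to 714 CPM in total RNA. The list medians were −2.42 in Z22, −1.82 in J2 and 1.28 in total RNA. Of the 23 chains 14 were lower in both precipitates and higher in total RNA, for which no all-gene share was computed. With a 2-fold line in each fraction 5 chains had this pattern, beside 0.722% of all measured genes. Against genes of similar GC content the Z22 median was −1.52.

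Among the other large falls, the matrix genes Bgn and Loxl1 were also lower in the precipitates and higher in total RNA. Bgn, the proteoglycan biglycan, went from 39.1 to 0.490 CPM in Z22, from 71.1 to 0.0752 CPM in J2 and from 0.646 to 227 CPM in total RNA, beside 8.96 CPM in J2 and 251 CPM in total RNA with ADAR1i-124. Loxl1, which crosslinks elastin, went from 42.6 to 1.22 CPM in Z22 and from 6.52 to 40.6 CPM in total RNA. Epb41l3, a membrane skeleton protein, went from 212 to 6.73 CPM in Z22 and from 76.8 to 124 CPM in total RNA (0.66, under 2-fold). Of the 12 largest falls, all 12 had their highest Z22 value in the DMSO library and 10 their lowest in the 5-Aza-CdR library, which their choice nearly fixes too. In J2 10 of them were at least 2-fold lower, beside 6.13% of all measured genes. In total RNA 2 of the 12 were lower and 6 higher, beside 9.67% and 14.5% of all measured genes. Across all measured genes 99 (0.722%) were at least 2-fold lower in Z22 and J2 and at least 2-fold higher in total RNA.

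Y-linked genes, looked up after 3 of them were seen among those 99, moved with the collagens. The sum over chromosome Y was 89.4 CPM in Z22 with DMSO, 24.6 CPM with ADAR1i-124, 5.75 CPM with 5-Aza-CdR, and 28.3 CPM in the combination. In J2 it was 69.8 CPM with DMSO, 8.61 CPM with ADAR1i-124 and 8.65 CPM with 5-Aza-CdR, and in total RNA 8.64, 131 and 115 CPM, so the DMSO libraries stood apart there. Ddx3y, an RNA helicase, had 19.8 CPM in Z22 with DMSO and 0 counts with 5-Aza-CdR, at least 54.0-fold lower. In total RNA Ddx3y was at 3.35 CPM with DMSO and 36.7 CPM with 5-Aza-CdR. Of the fibroblast and mesenchymal markers 3 of 4 were measured (Col1a2, Col1a1 and Pdgfra), of which both collagens are in the list above, and Thy1 had no count in either library. Their sum, most of which is Col1a2 in the Z22 DMSO library, went from 1132 to 27.1 CPM in Z22 and from 69.3 to 539 CPM in total RNA. In J2 Pdgfra had 43.2 and 10.8 CPM, while Col1a1 had 4.27 and 3.76 CPM. The total RNA and Z22 libraries of DMSO cells thus differed in these genes too, and the part of these differences in the collagen result was not tested.

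Most of the melanocytic markers were absent or under the filter in Z22. Of 7, only Mitf, the lineage's master regulator, was measured in Z22, at 11.0 CPM with DMSO and 28.2 CPM with 5-Aza-CdR (0.26, counting interval −0.05 to 0.65), and 4 (Tyr, Tyrp1, Dct and Mlana) had no count in either library. The summed level of the 7 was 22.3 CPM in total RNA with DMSO. Among leukocyte markers only Cd68 was measured (15.2 and 40.4 CPM in Z22). In J2 Cd68 went from 59.6 to 17.8 CPM and in total RNA from 8.29 to 75.4 CPM. Of the 2 endothelial markers, both measured, Cdh5 went from 6.65 to 29.9 CPM in Z22 and from 3.70 to 81.1 CPM in total RNA. The other, Pecam1, had 4 and 13 counts in Z22 (0.07, counting interval −0.96 to 2.81). In total RNA Pecam1 had 0.353 and 1.59 CPM.

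**Figure D3:**
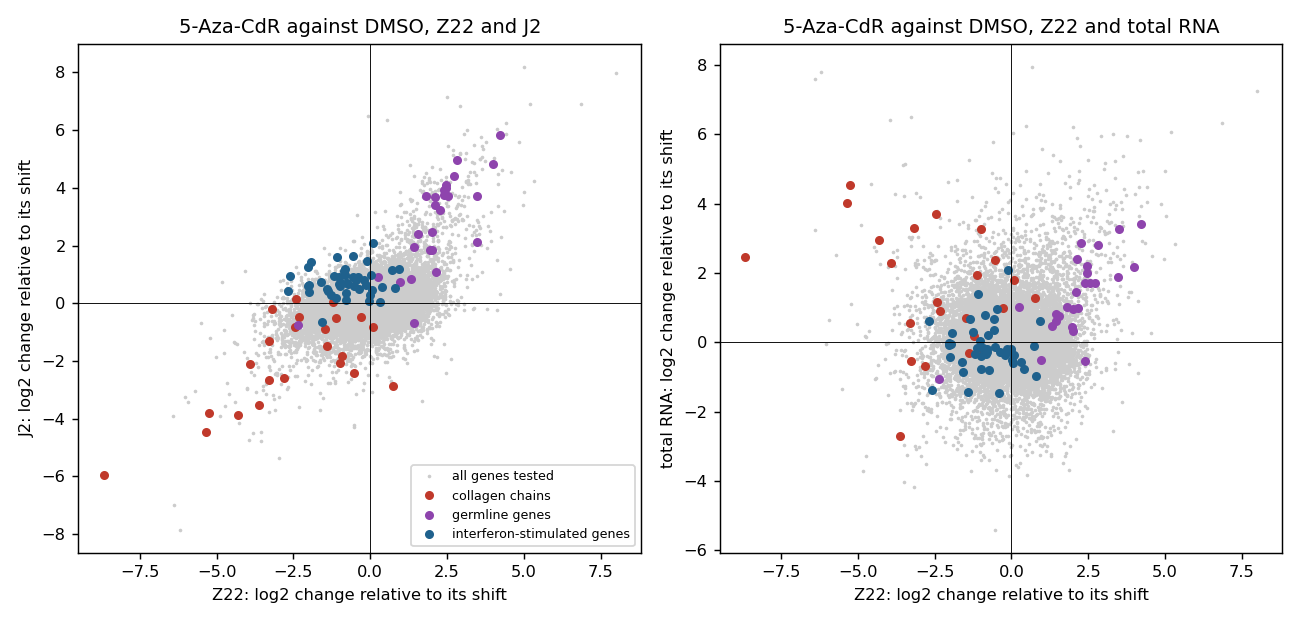
Change with 5-Aza-CdR relative to the all-gene shift, log2, in Z22 (horizontal) against J2 (left, vertical) and total RNA (right, vertical), 1 point a gene, with 3 lists in colour. Collagen chains lie low in Z22 and J2 (medians −2.42 and −1.82) and mostly high in total RNA (1.28), while most germline genes lie high in Z22 and J2. In total RNA 16 of the 26 germline genes are at least 2-fold above, beside 14.5% of all measured genes. In the Z22 DMSO library 16 of the 26 had 0 counts and so passed the filter through the 5-Aza-CdR library alone.

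Over the 13716 genes, the changes in Z22 and J2 had a Pearson r of 0.51 and a Spearman rho of 0.40, and those in Z22 and total RNA 0.08 and 0.0039. Genes are not independent replicates, and these values describe the libraries. Of the genes at least 2-fold above the Z22 shift, 588 were also above in J2, which is 23.4% of the Z22 set and 59.2% of the J2 set. In total RNA 541 were above, 21.5% of the Z22 set and 27.2% of the total RNA set, and 370 genes are in both of these counts. Of the genes below the Z22 shift, 428 were below in J2 (16.2% and 50.9%) and 326 in total RNA (12.3% and 24.6%), while 455 were above it in total RNA. Of all measured genes 18.4% were above and 19.3% below in Z22, and 7.25% and 6.13% in J2. In total RNA 14.5% were above and 9.67% below. The J2 shares of both Z22 sets were thus above those of all genes. For the genes below in Z22, the 12.3% also below in total RNA was near its all-gene share.

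Interferon-stimulated genes, the antiviral program that double-stranded RNA sensors switch on, were lower relative to the shift. Of 46 genes 45 were measured, none was at least 2-fold above and 17 (37.8%) were at least 2-fold below, beside 18.4% and 19.3% of all measured genes, with a median of −0.80. With no filter beyond 1 count the median was −0.31. The raw sum hardly moved, at 6264 CPM with DMSO and 5847 CPM with 5-Aza-CdR, and 31 of the 46 had the higher CPM with 5-Aza-CdR, so the direction depends on reading genes against the shift. Isg15, a ubiquitin-like modifier, stood at 674 CPM with DMSO, 106 CPM with ADAR1i-124, 231 CPM with 5-Aza-CdR, 437 CPM in the combination and 265 CPM in IgG (−2.60). Bst2, the virus tether, went from 348 to 113 CPM (−2.68), Oasl2 from 482 to 244 CPM (−2.04) and Ifit3, which binds foreign RNA, from 595 to 302 CPM (−2.04). In J2 the list's median was 0.68 and in total RNA −0.20. The summed level was 2724 CPM in Z22 with ADAR1i-124 and 8779 CPM in the combination.

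**Figure D4:**
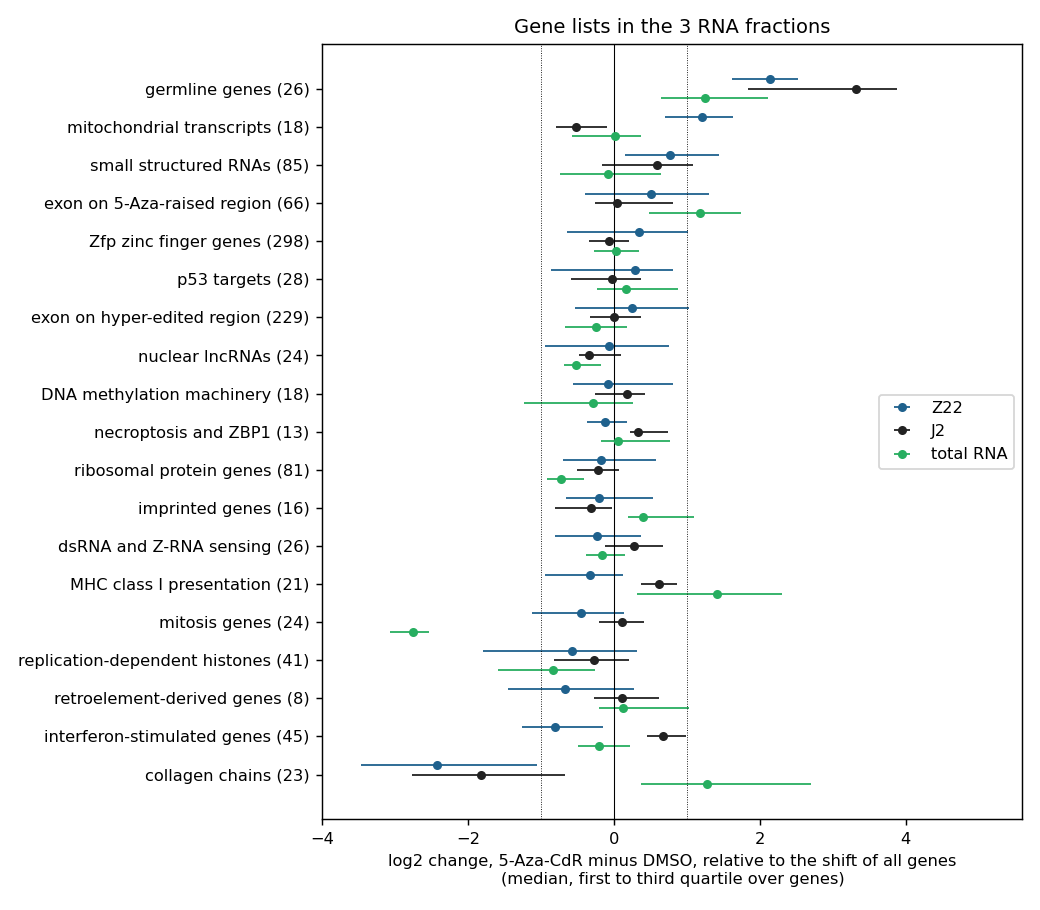
Median log2 change with 5-Aza-CdR relative to the all-gene shift (points) and quartiles over genes (bars) for each gene list with at least 8 measured genes, in Z22, J2 and total RNA; the number of measured genes is in brackets and dotted lines mark 2-fold. Interferon-stimulated genes are at −0.80 in Z22 and 0.68 in J2, and mitochondrial transcripts at 1.21 and −0.51.

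Of 27 genes of double-stranded RNA and Z-RNA sensing 26 were measured, with 3 at least 2-fold above, 3 below (beside 18.4% and 19.3% of all measured genes) and a median of −0.23. Adar, the editing enzyme ADAR1, had 149 CPM with DMSO and 241 CPM with 5-Aza-CdR (−0.37, counting interval −0.47 to −0.26). Ifih1, the sensor MDA5, had 198 and 215 CPM (−0.94), and Eif2ak2, the kinase PKR, 207 and 247 CPM (−0.80). At the edges were Adarb1, the editing enzyme ADAR2, at 1.72 and 28.5 CPM (2.65), Dhx9, a helicase of double-stranded RNA, at 107 and 510 CPM (1.19), and Oas3, a maker of 2-5A, at −1.36.

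Zbp1, the Z-RNA sensor that starts necroptosis, had 19.7 CPM with DMSO and 38.8 CPM with 5-Aza-CdR in Z22 (−0.10, counting interval −0.36 to 0.19). In J2 it was 1.46 and in total RNA 2.09 relative to the shift, at 25.1 and 111 CPM in total RNA. Ripk3, the kinase it recruits, had 1 count with DMSO and 22 with 5-Aza-CdR (1.32, counting interval 0.87 to 8.86). Mlkl, the pore former at the end of that path, had 127 and 181 CPM (−0.55). All 13 genes of the necroptosis list were measured, with 2 at least 2-fold above and none below, beside 18.4% and 19.3% of all measured genes, and a median of −0.12.

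Of 20 genes of the DNA methylation machinery 18 were measured, with 2 at least 2-fold above and 2 below (11.1% each, beside 18.4% and 19.3% of all measured genes) and a median of −0.09. Dnmt1, the maintenance methyltransferase that the agent traps, had 447 CPM with DMSO and 394 CPM with 5-Aza-CdR (−1.24). The de novo enzymes Dnmt3a (−0.76) and Dnmt3b (−0.09, 11 and 24 counts) were nearer the shift. Uhrf1, which brings Dnmt1 to replicated DNA, had 33.1 and 137 CPM (0.97), beside 239 CPM with ADAR1i-124 and 187 CPM in IgG. The edges were Zbtb33 (1.55), a reader of methylated DNA, Pcna (1.29), the replication clamp, and Tet3 (−1.31), an oxidase of methylcytosine.

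Mitosis genes differed between the fractions of DMSO cells already, with a summed level of 4305 CPM in total RNA, 2584 CPM in Z22 and 1077 CPM in J2. With ADAR1i-124 the J2 sum was 5198 CPM. Whether total and precipitated RNA came from the same cultures is not stated in the sources used here, and its part in these values was not tested. In total RNA all 24 were at least 2-fold below the shift, beside 9.67% of all measured genes, with a median of −2.76. In Z22 the median was −0.45, with 2 at least 2-fold above and 6 below (beside 18.4% and 19.3% of all measured genes), and in J2 it was 0.10. Cdk1, the mitotic kinase, went from 15.8 to 147 CPM in Z22 (2.11) and from 224 to 33.0 CPM in total RNA, beside 183 CPM in Z22 with ADAR1i-124 and 280 CPM in IgG. Ndc80, a kinetochore protein, went from 435 to 180 counts in Z22 (−2.22). The summed level of the 24 in Z22 was 2788 CPM with 5-Aza-CdR, 4673 CPM with ADAR1i-124 and 442 CPM in the combination.

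Mitochondrially encoded transcripts were higher. Of 37, 18 were measured, 11 at least 2-fold above the shift and 1 below (61.1% and 5.56%, beside 18.4% and 19.3% of all measured genes), with a median of 1.21 in Z22, −0.51 in J2 and 0.02 in total RNA. mt-Co1, a cytochrome oxidase subunit, had 548 CPM with DMSO, 3392 CPM with ADAR1i-124, 5539 CPM with 5-Aza-CdR, 4137 CPM in the combination and 4664 CPM in IgG. mt-Nd3, of complex I, had 2.64, 38.7, 66.6, 30.4 and 43.7 CPM in the same order. The DMSO library was the low one for both. Against genes of similar GC content the list's median was 0.32.

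Small structured RNAs, chosen by biotype, numbered 3527, of which 2968 had no count in either library, 474 were under the filter and 85 were measured. Of the 85, 37 were at least 2-fold above the shift and 3 below (43.5% and 3.53%, beside 18.4% and 19.3% of all measured genes), with a median of 0.76. This depended on the filter and the pseudocount: the median was −0.0042 with no filter beyond 1 count, 0.11 with a pseudocount of 2 CPM and 0.45 in genes with at least 1 CPM in IgG. In sum they stood at 1098 CPM with DMSO, 5621 CPM with 5-Aza-CdR, 5577 CPM with ADAR1i-124 and 7925 CPM in IgG. The low value was again that of the DMSO library.

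Some short loci annotated as microRNA genes were lower too, of which Gm24187 and Gm24245 were chosen as largest falls. Gm23935 is itself 1 of the 4 measured rRNA-like loci. Of 23 measured genes annotated as microRNA genes, 9 were at least 2-fold below the shift and 2 above, with a median of −0.66. Of all measured genes 19.3% and 18.4% were so. The short loci are shown because they are near copies, so that reads cannot be assigned to 1 of them. Gm23935 lies at chr16:11144125-11144181 on the plus strand and Gm24187 at chr13:9834469-9834525 on the minus strand of GRCm38. Written 5′ to 3′ on the gene's strand, with the differing base in capitals, they read:
Gm23935: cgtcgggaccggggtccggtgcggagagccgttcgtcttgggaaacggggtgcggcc
Gm24187: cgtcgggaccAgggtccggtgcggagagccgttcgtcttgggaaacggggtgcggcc
The difference is G11A, counted from 1 at the 5′ end. Gm24270 and Gm24245 are identical to Gm23935 over all 57 bases. Gm23935 went from 6334 to 1070 CPM in Z22 (−3.63), Gm24187 from 499 to 22.2 CPM (−5.52) and Gm24245 from 46.3 to 0.979 CPM (−6.04). In IgG they were at 852, 50.4 and 0.587 CPM, and with ADAR1i-124 at 2867, 85.1 and 10.4 CPM. The combination, which also had 5-Aza-CdR, held 4871, 154 and 29.5 CPM, far above the library with 5-Aza-CdR alone. In J2 the relative changes were −1.45 for Gm23935, −0.70 for Gm24187 and −3.24 for Gm24245.

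Of 21 genes of MHC class I presentation 3 were at least 2-fold above and 5 below, near the 18.4% and 19.3% of all measured genes against which each count in this paragraph is set, with a median of −0.33 in Z22 (−0.045 against genes of similar GC content and 0.15 with no filter beyond 1 count), 0.62 in J2 and 1.41 in total RNA. B2m, the shared light chain, went from 121 to 967 CPM in Z22 (1.94), beside 523 CPM in IgG. Of 41 measured replication-dependent histone genes 4 were above and 20 below (9.76% and 48.8%, median −0.58), but with a mean of at least 10 CPM the median was 0.52. The list was led by Hist1h4k, a histone H4 gene, at 52 and 5 counts (−3.60). Of 81 measured ribosomal protein genes 14 were above and 14 below (17.3% each, near those shares), with a median of −0.18 that was 0.30 with no filter beyond 1 count. Of 298 measured Zfp zinc finger genes 77 were above and 53 below (25.8% and 17.8%), and their median of 0.34 was −0.045 against genes of similar GC content. Of 28 measured p53 targets 6 were above and 6 below (21.4% each, median 0.29), and of 24 nuclear long noncoding RNAs and paraspeckle proteins 6 and 6 (25% each, median −0.07). Malat1, a nuclear speckle RNA, stood at 10298 and 17207 CPM (−0.32).

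Imprinted genes, marked by parental methylation, had 16 of 41 measured, 2 above and 3 below (12.5% and 18.8%, beside 18.4% and 19.3% of all measured genes), with a median of −0.21. Grb10, an adaptor that restrains growth signals, went from 7.91 to 1.71 CPM in Z22 (−2.99) and from 1.88 to 44.3 CPM in total RNA. Genes derived from retroelements had 8 of 27 measured, 1 above and 3 below (12.5% and 37.5%), with a median of −0.66 (−0.036 against genes of similar GC content).

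Genes whose exons overlap regions the study lists as hyper-edited had 229 of 242 measured, 60 above and 34 below (26.2% and 14.8%, beside 18.4% and 19.3% of all measured genes), with a median of 0.25, or 0.094 against genes of similar GC content. The hosts Wdr76, Iws1 and Gnl3l had 3.44 and 15.8 CPM (0.99), 107 and 96.1 CPM (−1.21), and 38.8 and 80.1 CPM (−0.03). Genes whose exons overlap regions it lists as raised by 5-Aza-CdR had 66 of 83 measured, 23 above and 10 below (34.8% and 15.2%, beside the same shares of all genes), with medians of 0.51 in Z22, 0.04 in J2 and 1.18 in total RNA. The study chose those regions on these libraries, so their direction is not independent evidence. Among them were Tnfrsf26, a decoy death receptor, at 4 and 200 counts (3.64), and Noct, a circadian phosphatase, at 134 and 1480 counts (2.46).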

How the data were processed

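Cells had been treated, RNA cut with RNase I and DNase, and precipitated with Z22, J2 or IgG. The authors prepared rRNA-depleted paired-end libraries, mapped reads with STAR in snakePipes to mm10 and deposited raw counts per gene; the counting tool and its strand setting are not given in the sources used here. Without strand, overlapping and antisense genes cannot be told apart. Gene symbols came from GENCODE M21 (GRCm38), which matched 54495 of 54532 IDs.

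From the deposited counts, CPM by column sum, log2(CPM + 0.5) and the median over genes averaging 1 CPM or more in the pair were computed in Python 3.11.15 with no test, since each condition has 1 library. Depth was 8727552 and 8167960 counts, so 3 counts, the floor, equal 0.344 and 0.367 CPM. Intervals are exact 95% binomial intervals on the counts of both libraries, relative to the shift, without a pseudocount. The script was tested on simulated data.

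Named genes were the 12 largest relative rises and falls with a mean of at least 10 CPM, the 5 highest shares, 13 fixed genes and up to 4 members of each list. Lists defined by a symbol pattern, such as Zfp genes, hold protein-coding genes, except the mitochondrial list. Members and lists were chosen with earlier results of these data known. Alternatives used edgeR 4.0.16 TMM factors and DESeq2 1.42.0 size factors, other pseudocounts and filters. The total RNA combination library, at 1245894 counts, was not used here.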

Additional observations from a re-analysis of the deposited data

Results flagged for a closer look

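Relative to the shift of each pair, the results here ran in opposite directions in 2 RNA fractions under the same treatment. Each condition had 1 library, and the difference was not tested. Interferon-stimulated genes had a median relative change of −0.80 in Z22 and 0.68 in J2. In raw CPM 31 of the 46 were higher in Z22 with 5-Aza-CdR, so their direction in Z22 depends on the shift. Mitochondrially encoded transcripts had 1.21 in Z22 and −0.51 in J2. Against genes of similar GC content their Z22 median was 0.32. Collagen chains had −2.42 in Z22 and 1.28 in total RNA. Of the single genes, Col1a2 was at −8.67 in Z22 and 2.47 in total RNA, and Bgn was at −6.38 and 7.60. Loxl1 was at −5.70 and 2.51, Col4a1 at −5.35 and 4.02, and Col4a2 at −5.26 and 4.54. In total RNA ADAR1i-124 alone also lay above DMSO for each of these single genes. The values were 329 against 60.2 CPM for Col1a2, 251 against 0.646 CPM for Bgn and 34.1 against 6.52 CPM for Loxl1. For Col4a1 they were 186 against 8.05 CPM and for Col4a2 106 against 2.70 CPM.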

How the results depend on the processing

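No paired analysis was possible because each condition has 1 library and the labels carry no replicate numbers, and for the same reason no library was left out. The all-gene shift of 1.06 was 0.56 without the 20 genes of highest mean share, 0.086 with edgeR TMM factors, 0 with DESeq2 size factors, 1.13 with a pseudocount of 0.1 CPM, 0.85 with 2 CPM, 0.97 with a mean of at least 10 CPM, 0.58 with no filter beyond 1 count and 1.03 over protein-coding genes. The 2517 genes above and 2650 below became 1511 and 1541 with a mean of at least 10 CPM, where 8196 genes remain, and 4838 and 2103 with no filter, or 1796 and 2291 against genes of the same GC content. At the 4-fold line there were 423 and 626. In J2 the number below the shift was 841, and 499 with a pseudocount of 2 CPM.

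The germline median of 2.14 was 2.73 without the 20 genes, 2.66 with TMM, 2.71 with DESeq2 factors, 4.09 and 0.87 with pseudocounts of 0.1 and 2 CPM, 2.48 in the 1 gene with at least 10 CPM, and 0.97 in the 5 genes with at least 1 CPM in IgG, a filter chosen after seeing the data. With no filter, medians were −0.31 for interferon-stimulated genes, 0.77 for p53 targets, 0.15 for MHC class I, 0.30 for ribosomal proteins, 0.57 for Zfp genes, −0.56 for collagens, 0.71 for hyper-edited hosts and −0.0042 for small structured RNAs. The last was 1.22 and 0.11 with pseudocounts of 0.1 and 2 CPM, 1.35 with at least 10 CPM and 0.45 with the IgG filter. With at least 10 CPM histones were at 0.52 and Zfp genes at −0.018. Against genes of the same GC content, also chosen after seeing the data, mitochondrial transcripts were at 0.32, hyper-edited hosts at 0.094, Zfp genes at −0.045, collagens at −1.52, MHC class I at −0.045 and retroelement-derived genes at −0.036. The cause of these moves was not tested. Of 189 recomputed list medians 165 stayed within the 95% interval of the main median, an interval over the list's genes, which are not replicates of a condition, and of 396 values of 42 single genes 258 stayed within the counting interval, while no gene at least 2-fold from the shift changed sign. Depth limits genes under the floor of 3 counts, 0.344 CPM with DMSO.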
